A study of Homo sapiens with 8 samples.

Results

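The family of miR-148 and miR-152 comprises miRNAs of the MIR148A, MIR148B and MIR152 genes, and the members described here were chosen by name: hsa-miR-148a-3p, hsa-miR-148a-5p, hsa-miR-148b-3p, hsa-miR-148b-5p and hsa-miR-152-3p, written below without the species prefix. These are 5 of the 2549 human miRNAs on the array. A miRNA was tested when the scanner software detected it on all 4 arrays of at least 1 group, and 3 of the 5 members met this condition, against 456 miRNAs in all. A miRNA guides a repressor complex to messenger RNAs that pair with its seed, the bases near its 5′ end. A hairpin precursor can give a miRNA from each of its arms, named 5p and 3p. miR-148a-3p is known as a miRNA of plasma cells, and members of the family are known to repress DNMT1 and DNMT3B, enzymes that methylate DNA.

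The mature sequences of the family are shown because they separate the members that share a seed from those that do not. They were taken from RefSeq (GRCh38.p14), read 5′ to 3′, with the seed (bases 2 to 8) in capitals. miR-148a-5p had no entry there, so its sequence is not shown.
miR-148a-3p: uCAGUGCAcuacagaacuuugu
miR-148b-3p: uCAGUGCAucacagaacuuugu
miR-152-3p: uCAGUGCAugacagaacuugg
miR-148b-5p: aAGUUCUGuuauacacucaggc
miR-152-5p: aGGUUCUGugauacacuccgacu
The 3p members shared the seed CAGUGCA, which stood at bases 2 to 8 of 3 of the 2370 human mature miRNA names in the RefSeq table, these 3 alone. Counted from 1 at the 5′ end, miR-148b-3p differed from miR-148a-3p by C9U and U10C, so that 20 of 22 bases were the same. miR-152-3p differed from miR-148a-3p by C9U, U10G and U20G, with 18 of 21 bases the same. The 5p sequences of MIR148B and MIR152 differed inside the seed, by A2G. In the annotation, MIR148A lies on chromosome 7 (minus strand) inside the bounds of LOC105375199. MIR148B lies on chromosome 12 (plus strand) inside COPZ1, and MIR152 on chromosome 17 (minus strand) inside COPZ2, genes for paralogous subunits of the coatomer coat of Golgi vesicles.

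The cells were INA-6, a human multiple myeloma (MM) line that depends on interleukin-6, so all samples come from 1 line. UNC1999, an inhibitor of the histone methyltransferases EZH2 and EZH1, was given at 1 µM for 120 h with medium and compound refreshed at 72 h, and 4 UNC1999 samples were compared with 4 DMSO control samples. The titles name DMSO for the controls, whereas the treatment protocol names UNC2400, an inactive analogue, and they were taken as DMSO controls here. RNA of each sample was labelled in 1 colour and hybridised to 1 of the 8 miRNA arrays of 1 slide. These arrays do not measure EZH2 activity or its histone mark.

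The number of human miRNAs detected per array ranged from 369 to 500. Within each group the arrays fell into pairs that were more alike: DMSO replicates 1 and 4, DMSO replicates 2 and 3, UNC1999 replicates 1 and 3, and UNC1999 replicates 2 and 4. The median absolute log2 difference was 0.083 to 0.147 within these pairs and 0.179 to 0.280 between the pairs of a group. The labels do not say that paired arrays share a culture or an RNA extract, so all 8 were used as samples, with the pair means given where they matter. The titles number the samples of each group as biological replicates 1 to 4. The p-values measure the spread between these samples, which may still be technical. Of 6 blood and B-lineage miRNAs, miR-142-3p, miR-142-5p, miR-150-5p and miR-181a-5p were detected widely enough to be tested, miR-155-5p was detected on 0 DMSO and 2 UNC1999 arrays, and miR-146a-5p on none. Of 13 miRNAs that mark other tissues, 12 were detected on none of the 8 arrays, including the liver miRNA miR-122-5p and the erythroid miRNA miR-451a. The exception was miR-9-5p, listed for neurons and detected on all 8. The summed scaled signal of the 13 was 89.3 to 141 in DMSO and 52.0 to 84.8 in UNC1999, and its part in the results was not tested.

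All 3 tested members were lower after UNC1999 treatment. miR-148a-5p fell 3.59-fold, miR-148a-3p 2.46-fold and miR-148b-3p 1.89-fold relative to the 75th percentile of miRNA signal on the same array. A change was called when limma's p, adjusted over the 456 tested miRNAs by Benjamini-Hochberg, did not exceed 0.05 and the fold was 1.2 or more. By this rule 34.6% of the tested miRNAs were called lower, 36% higher and 70.6% in either direction, so a lower call alone was common. A call of at least 2-fold lower, which both arms of miR-148a had, was made for 19 tested miRNAs (4.17%). miR-148b-5p and miR-152-3p were not detected widely enough to be tested.

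miR-148a-3p is the 3p arm of the MIR148A hairpin. Its log2 scaled signal (the summed probe signal after scaling each array to its 75th percentile) was 13.07, 12.61, 12.41 and 13.10 in DMSO replicates 1 to 4. It was 11.92, 11.09, 11.76 and 11.21 in UNC1999 replicates 1 to 4. Every UNC1999 array lay below every DMSO array, with 0.48 on the log2 scale between the nearest arrays. Among tested miRNAs, 32.7% had groups that did not overlap in this direction, and 65.4% in either direction. The mean fell from 12.80 ± 0.34 to 11.49 ± 0.41 (SD, n = 4 each). The log2 fold change was −1.30 (SE 0.22, limma adjusted p = 0.000762). The change ranked 7 among the largest falls (37 in the authors' processed values), and the exact permutation test over the 8 arrays gave p = 0.0286 (two-sided), the smallest that 4 against 4 allows. Its spread within groups was larger than that of 92.3% of the tested miRNAs.

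miR-148a-5p, the 5p arm of the same hairpin, had DMSO log2 scaled signals of 6.73, 6.30, 6.21 and 6.79 in replicate order. In UNC1999 replicates 1 to 4 it was 5.27, 4.40, 5.11 and 3.88. The groups did not overlap, the nearest arrays were 0.94 apart, and UNC1999 replicate 4 was the lowest of all. The mean fell from 6.51 ± 0.30 to 4.66 ± 0.64 (SD, n = 4 each). This was a log2 fold change of −1.84 (SE 0.28, limma adjusted p = 0.000502; exact permutation p = 0.0286, two-sided). With summed probes it ranked 1 among the 456 tested miRNAs by size of fall. Its spread within groups was larger than that of 98.7% of them. The size of the fall depended on the signal summary, at −0.65 with normexp background correction, −0.53 when log2 probe values were averaged and −2.80 in the authors' processed values. Its rank was then 23, 93 and 4, and in the first 2 of these settings the fall was under 2-fold. The normexp setting added an offset of 50 to each spot, whereas the brightest miR-148a-5p probe had a mean intensity of 49.0 over the arrays.

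miR-148b-3p carries the same seed as miR-148a-3p but comes from another chromosome. On the DMSO arrays, in replicate order, its log2 scaled signal was 6.50, 6.10, 6.03 and 6.50. On the UNC1999 arrays it was 5.58, 5.16, 5.47 and 5.25. The groups again did not overlap, with 0.45 between the nearest arrays. The mean fell from 6.28 ± 0.25 to 5.36 ± 0.19 (SD, n = 4 each), or −0.92 as a log2 fold change (SE 0.15, limma adjusted p = 0.000568; exact permutation p = 0.0286, two-sided). It ranked 31 among the largest falls. It was −0.56 (rank 32) with normexp and −0.51 (rank 102) when log2 probe values were averaged. The sequence of miR-148b-3p matches that of miR-148a-3p at 20 of 22 bases. The mean log2 ratio of miR-148a-3p to miR-148b-3p was 6.51 in DMSO. Whether miR-148a-3p also bound the probes of miR-148b-3p was not tested.

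**Figure D1:**
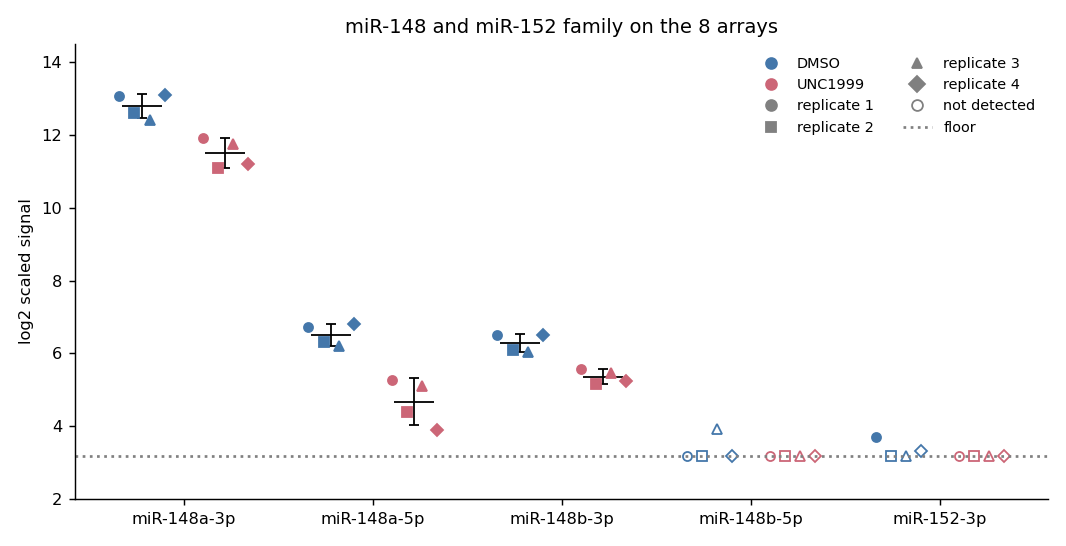
The log2 scaled signal of the 5 members (vertical axis) on each array, by group and replicate, with the mean and SD of 4 arrays for the tested members; open symbols mark arrays where the miRNA was not detected and the dotted line is the floor at a scaled signal of 8.98. In miR-148a-3p, miR-148a-5p and miR-148b-3p all 4 UNC1999 arrays lie below all 4 DMSO arrays, and miR-148b-5p and miR-152-3p lie at or near the floor.

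miR-152-3p, the other carrier of the CAGUGCA seed, was detected on 1 of 8 arrays, DMSO replicate 1. Across the DMSO arrays, in replicate order, its scaled signal was 13.0, 0.235, 4.62 and 10.0. Across the UNC1999 arrays it was 7.89, 1.66, 4.75 and 5.36. The groups overlapped, and only DMSO replicates 1 and 4 lay above the floor of 8.98, below which values have no order. miR-148b-5p was detected on 0 of 8 arrays, with scaled signals from −1.05 to 15.2. miR-152-5p was also detected on 0 of 8, as was miR-6874-3p, which has the same seed as miR-148b-5p in the RefSeq table. No change can be given for these miRNAs, and a difference was not detectable at this signal.

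**Figure D2:**
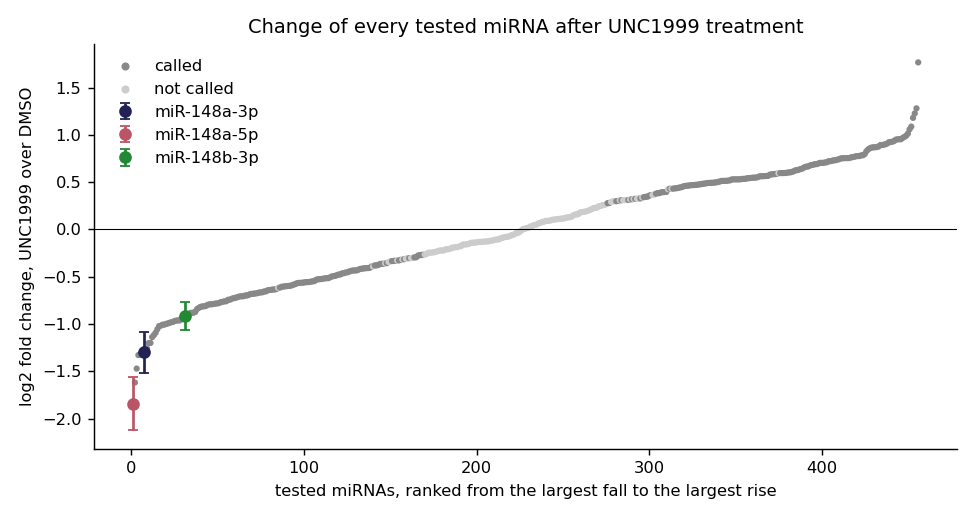
The log2 fold change of UNC1999 over DMSO (vertical axis) for the 456 tested miRNAs, ranked from the largest fall to the largest rise (horizontal axis), with the 3 tested members in colour and their SE as bars. Probe signals are summed. miR-148a-5p stands at rank 1, miR-148a-3p at rank 7 and miR-148b-3p at rank 31.

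The falls of miR-148a-3p and miR-148b-3p are changes relative to the other miRNAs of an array. Before scaling, the 75th percentile of signal was 0.70 higher on the log2 scale in UNC1999 than in DMSO (exact permutation p = 0.0571, two-sided), whereas the spike-in RNAs differed by −0.075 (exact permutation p = 0.343, two-sided). The DMSO arrays had unscaled summed signals of 7850, 4212, 3099 and 9478 for miR-148a-3p, in replicate order, and the UNC1999 arrays 5137, 2972, 4894 and 2439, and here the groups overlapped. Without scaling, miR-148a-5p was still called lower, with a log2 fold change of −1.15 (limma adjusted p = 0.00816). miR-148a-3p was then at −0.60 (adjusted p = 0.13) and miR-148b-3p at −0.22 (adjusted p = 0.575), and neither was called. The median of all tested miRNAs was 0.67 in that fit. With arrays scaled to the spike-ins the changes were −1.07 for miR-148a-5p, which was called, −0.53 for miR-148a-3p and −0.15 for miR-148b-3p, beside a median of 0.74 over all tested miRNAs. All 3 members were below 0 in each of the 25 alternatives run.

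**Figure D3:**
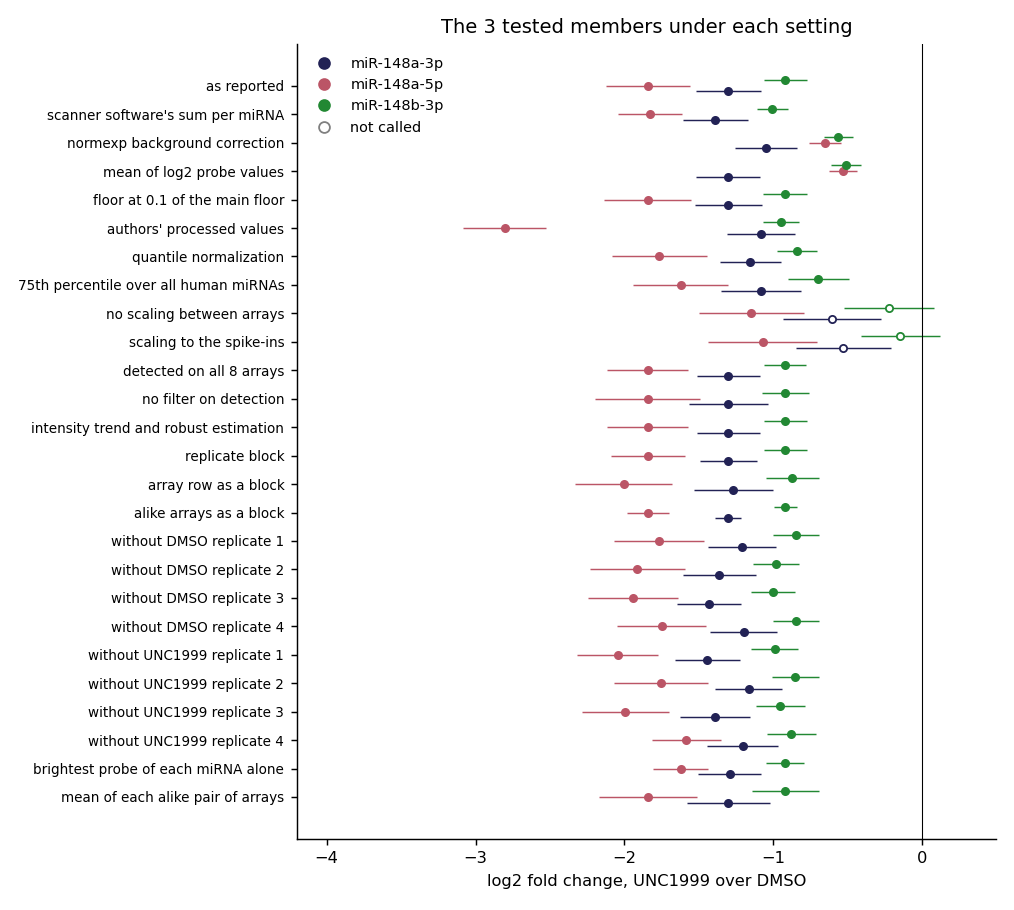
The log2 fold change of UNC1999 over DMSO with its SE (horizontal axis) for the 3 tested members, as reported and under each of the 25 alternatives (vertical axis); open symbols were not called. All values lie below 0, and the open symbols are miR-148a-3p and miR-148b-3p without scaling and with scaling to the spike-ins.

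The falls were also examined within the pairs of alike arrays and within the rows of the slide. DMSO replicates 1 and 4 with UNC1999 replicates 1 and 3 gave changes of −1.24 for miR-148a-3p, −1.57 for miR-148a-5p and −0.98 for miR-148b-3p. DMSO replicates 2 and 3 with UNC1999 replicates 2 and 4 gave −1.36, −2.12 and −0.86 in the same order. The sides, each 1 DMSO pair with 1 UNC1999 pair, were set from the signals of these same arrays. Every UNC1999 array lay below every DMSO array for the 3 members, so lower values on both sides were fixed in advance. With each pair averaged to 1 sample the 3 members were still called (limma adjusted p = 0.0158 for miR-148a-3p, 0.0130 for miR-148a-5p and 0.0246 for miR-148b-3p). In that fit 156 of the 456 tested miRNAs were called, 86 of them lower. Row 1 of the slide held DMSO replicates 1, 2 and 4 and UNC1999 replicate 4, and the remaining arrays lay in row 2. The change was −1.72 in row 1 and −0.82 in row 2 for miR-148a-3p. It was −2.72 and −1.29 for miR-148a-5p, and −1.12 and −0.62 for miR-148b-3p. Each row held 1 array of a group, so these values have no test, and whether the change differed between the rows was not tested. With the row as a block in the fit, the 3 members were still called, among 285 called miRNAs of which 139 were lower.

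The array carries each member on 20 spots, spread over 2 probes for the 3p members and 4 probes for miR-148a-5p, and the probes of a member did not contribute alike. The 2 probes of miR-148a-3p fell by 1.32 and 1.29 on the log2 scale, with all spots well above background on all 8 arrays. For miR-148a-5p the brightest probe fell by 1.62 (exact permutation p = 0.0286, two-sided). Its 5 spots were well above background on 7 arrays, but only 2 of them were on UNC1999 replicate 4. The next probe was at the floor on 4 arrays, all of them UNC1999, and the other 2 probes were at the floor on all 8. The value for miR-148a-5p therefore came mostly from 1 probe of 5 spots. For miR-148b-3p 1 probe fell by 0.92 with all 10 spots well above background on all 8 arrays, whereas the other lay at the floor on 6 arrays.

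The arms of miR-148a fell by different amounts when probe signals were summed. The log2 ratio of miR-148a-5p to miR-148a-3p within an array, in replicate order, was −6.33, −6.31, −6.19 and −6.31 for DMSO and −6.65, −6.69, −6.65 and −7.32 for UNC1999. A ratio within an array is free of scaling by 1 factor per array. It changed by −0.54 (SE 0.16, limma adjusted p = 0.0175 over 27 hairpins with both arms tested; exact permutation p = 0.0286, two-sided), with no overlap between groups, as was so for most of the 27 hairpins. The direction depended on how the probes were handled. With normexp background correction, which added an offset of 50 to each spot, the change was 0.40 (adjusted p = 0.345). When log2 probe values were averaged it was 0.77 (adjusted p = 0.00357). In the authors' processed values it was −1.72, and with the brightest probe of each arm alone −0.33 (adjusted p = 0.0195). With each alike pair averaged to 1 sample the change of −0.54 was no longer called (adjusted p = 0.174). Unequal arms were common among hairpins. With summed probes, the arm ratio was called changed for 59.3% of the 27 and called lower for 22.2%, and miR-148a was at rank 6 from the lowest, with a size of change below the median of 0.599. With normexp, and again when log2 probe values were averaged, it was at rank 21 from the lowest, and its size was above the median of 0.169 and of 0.577 in those settings. The arm ratio fell most for miR-424 (−1.59), miR-4433a (−1.14) and miR-150 (−0.83), and rose most for miR-6889 (1.69), miR-4758 (1.23) and miR-6800 (1.09). MIR148A was 1 of 7 hairpins with both arms called lower (25.9%), and 6 hairpins had arms called in opposite directions.

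**Figure D4:**
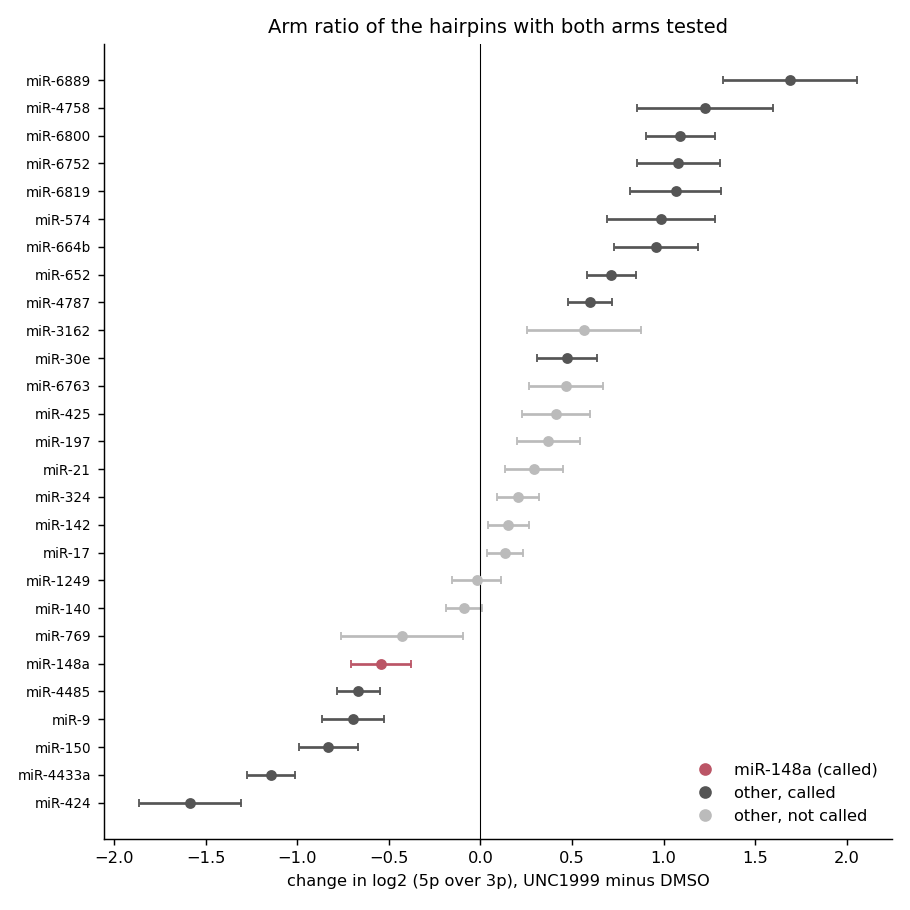
The change in the log2 ratio of 5p to 3p signal, UNC1999 minus DMSO, with its SE (horizontal axis) for the 27 hairpins with both arms tested (vertical axis), miR-148a in colour. Probe signals are summed. miR-148a lies at −0.54, rank 6 from the lowest, and 16 of the 27 changes were called.

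miR-148a-3p and miR-148b-3p, which share the seed, also differed in the size of their fall. The log2 ratio of miR-148a-3p to miR-148b-3p, in replicate order, was 6.57, 6.51, 6.38 and 6.60 for DMSO and 6.34, 5.93, 6.30 and 5.96 for UNC1999. The groups did not overlap, but UNC1999 replicate 1 and DMSO replicate 3 were close. The mean went from 6.51 ± 0.10 to 6.13 ± 0.22 (SD, n = 4 each), a change of −0.38 (exact permutation p = 0.0286, two-sided). Of the 5 ratios planned between members, these 2 were the ones whose miRNAs were both tested. The difference did not hold under every signal summary: with the scanner software's own sum the change was −0.38 with overlapping groups (exact permutation p = 0.0571), and with the brightest probe alone −0.37 (exact permutation p = 0.0571). It was −0.49 with normexp (exact permutation p = 0.229) and −0.14 in the authors' processed values (exact permutation p = 0.371).

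**Figure D5:**
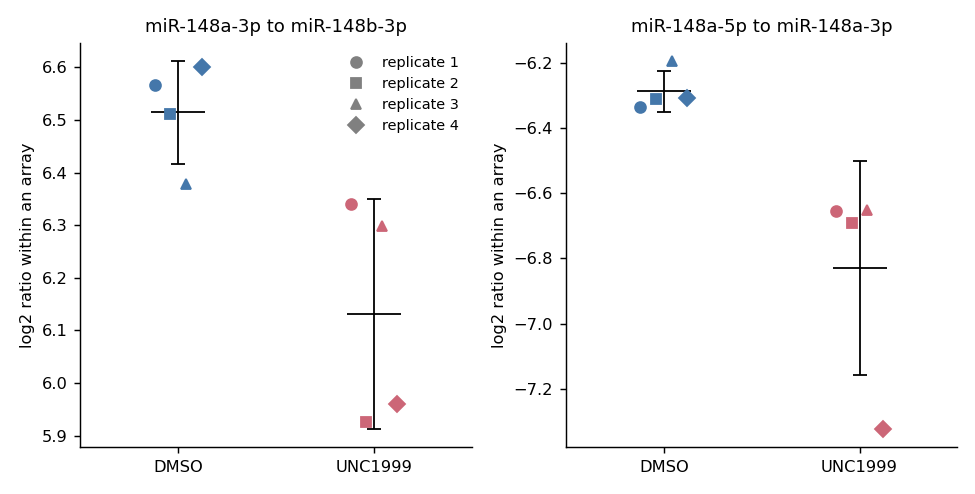
The log2 ratio of miR-148a-3p to miR-148b-3p and of miR-148a-5p to miR-148a-3p within each array (vertical axes), by group and replicate, with the mean and SD of 4 arrays. The UNC1999 arrays lie below the DMSO arrays in both, and UNC1999 replicate 4 lies apart at −7.32 for the ratio of the arms.

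The tested miRNAs whose log2 scaled signal followed the members most closely over the 8 arrays were listed by Pearson r, as a description, since the points share the treatment difference and the alike pairs. For miR-148a-3p these were miR-598-3p (r = 0.994), miR-19b-3p (r = 0.993) and miR-148b-3p (r = 0.992). For miR-148a-5p they were miR-361-5p (r = 0.990), let-7d-5p (r = 0.989) and miR-625-5p (r = 0.987). For miR-148b-3p they were miR-148a-3p, miR-29b-3p (r = 0.992) and miR-374a-5p (r = 0.991). With the group means subtracted, r was 0.968 between miR-148a-3p and miR-148b-3p, 0.892 between the arms of miR-148a and 0.806 between miR-148a-5p and miR-148b-3p. The within-group deviations largely followed the alike pairs: miR-148a-3p was 0.58 higher on the log2 scale in DMSO replicates 1 and 4 than in DMSO replicates 2 and 3, and 0.70 higher in UNC1999 replicates 1 and 3 than in UNC1999 replicates 2 and 4.

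Other miRNAs known to target DNA methyltransferases were read beside the family. Of 7 on the list 5 were tested, 3 were called lower and 0 higher, beside 34.6% lower and 36% higher among all tested miRNAs. The median change of the 5 was −0.76 (log2), the value of miR-29c-3p, against 0.011 over all tested miRNAs. The list was chosen with earlier results of these data known, so these values do not test a link to DNA methyltransferases. The 3 called lower were miR-29a-3p (−0.99, limma adjusted p = 0.00109), miR-29b-3p (−1.02, adjusted p = 0.00160) and miR-29c-3p (−0.76, adjusted p = 0.00308), which share a seed and are known to repress DNMT3A and DNMT3B. miR-185-5p (−0.21) and miR-342-3p (−0.11), known to repress DNMT1, were not called, and miR-126-3p and miR-143-3p were detected on 0 of 8 arrays. None of the 5 was called lower without scaling or with scaling to the spike-ins, where miR-29c-3p was at −0.07 and 0.01, and miR-185-5p and miR-342-3p lay above 0 in both settings and were called higher with the spike-ins. Of the tested blood and B-lineage miRNAs, miR-142-3p (−0.52), miR-142-5p (−0.36) and miR-150-5p (−0.56) were called lower, 3 of 4 beside the same 34.6%, and all lay above 0 without scaling. miR-9-5p was called lower (−0.88), and was at −0.18 without scaling.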

How the data were processed

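miRNA expression was measured on 8 single-colour Agilent arrays. The deposited scanner files hold spot intensities, background-subtracted by the authors' scanner software (Agilent Feature Extraction 10.7.3.1, per the submitters' processing notes). The authors also deposited a table of log2 values, quantile normalized over 2042 features, used as an alternative. Outlier spots (1392 to 2292 per array) were left out, and the remaining spots were averaged per probe and added up over the probes of each miRNA. Arrays were then scaled to their own 75th percentile, taken over 346 human miRNAs detected on all 8. Scaled signals were floored at 8.98 and log2 transformed. No spot of a member was saturated.

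The 4 UNC1999 and 4 DMSO arrays were compared by limma 3.58.1 (R 4.3.3) over 456 miRNAs, adjusted by Benjamini-Hochberg, a step tested on simulated data. The simulated arrays were independent of each other, so that test does not cover the alike pairs. The study's methods name a moderated test with a 1.2-fold limit. Ratios and probes were compared by exact permutation of arrays. The number of arrays limits the precision. Named miRNAs were the members, sharers of their seeds, the 3 tested miRNAs with the highest r to each member, the lists given and the 3 most changed arm ratios each way. The members and lists were chosen with earlier results of these data known. Replicate numbers were checked and were not taken as pairing, though the check cannot tell whether arrays of 1 number share a culture. Sequences came from RefSeq, and a mature name without an entry is named only. This was so for miR-148a-5p, and sharers of its seed were therefore not searched. The other experiments of the study were not analysed here.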

Additional observations from a re-analysis of the deposited data

Results flagged for a closer look

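In 1 of 10 groups of 4 arrays checked, 1 array stood far from the others: the log2 ratio of miR-148a-5p to miR-148a-3p was −7.32 in UNC1999 replicate 4, against −6.69 to −6.65 in the other UNC1999 arrays. The limit used for such a gap is passed by chance in about 1 in 20 groups, and the gap here was 0.939 of the range of the 4 arrays. On this array 2 of the 5 spots of the brightest miR-148a-5p probe were well above background, and its log2 scaled signal was 4.26 for that probe alone against 3.88 for the sum of probes. Without this array the change in the ratio was −0.38 (limma adjusted p = 0.0117 over the hairpins), and that of miR-148a-5p was −1.58 (adjusted p = 0.00126).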

How the results depend on the processing

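Of 25 alternatives, miR-148a-5p was called lower in 25 and miR-148a-3p and miR-148b-3p in 23 each. The exceptions were no scaling (miR-148a-3p −0.60, miR-148b-3p −0.22) and scaling to the spike-ins (−0.53 and −0.15). Across the single arrays left out, the change ranged from −1.44 to −1.17 for miR-148a-3p, from −2.04 to −1.58 for miR-148a-5p, from −1.00 to −0.85 for miR-148b-3p, from −0.60 to −0.38 for the ratio of the arms and from −0.45 to −0.31 for the ratio of miR-148a-3p to miR-148b-3p. The count of 322 called miRNAs ranged from 292 to 326 in this way. It was 195 with no filter on detection and 156 with the means of alike pairs. A paired t-test, which the study's methods give in general and not for these arrays, was run here with the replicate number as pairing and called 33.3% of the tested miRNAs after adjustment and 51.8% before. The means of alike pairs and the use of the brightest probe alone were chosen after seeing the data.

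The ratio of miR-148a-5p to miR-148a-3p changed direction with normexp background correction (0.40, exact permutation p = 0.343) and when log2 probe values were averaged (0.77, exact permutation p = 0.0286). That average weighs the 4 probes of miR-148a-5p equally, and 2 of them, at the floor on all 8 arrays, enter it with a change of 0. Normexp added an offset of 50 to each spot, and a constant added in this way shrinks the log2 change of dim probes more than that of bright ones. With it miR-148a-5p changed by −0.65 and miR-148a-3p by −1.05. Normexp without the offset was not tested. With the means of alike pairs the change in the ratio of the arms was −0.54 and not called (limma adjusted p = 0.174). The ratio of miR-148a-3p to miR-148b-3p missed the threshold with the scanner software's sum (−0.38), normexp (−0.49), the authors' values (−0.14) and the brightest probe alone (−0.37). Of the calls, 158 of 322 were lower as reported, against 230 of 284 with normexp, 88 of 280 with the percentile over all human miRNAs, 4 of 238 without scaling, 7 of 284 with the spike-ins and 117 of 263 with the authors' values. Deviations of arrays with the same replicate number correlated at 0.18, 0.27, −0.42 and −0.39, so the numbers were not taken as pairing. With the replicate number as a block 308 miRNAs were called, the members changed by −1.30, −1.84 and −0.92, and no call on a member or the arms was lost. miR-148b-5p and miR-152-3p lay too close to background for any fold.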
